A study of Gallus gallus with 8 samples.

Results

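Neural miRNAs were examined in ectoderm dissected from the frontonasal ectodermal zone of chick embryos, facial tissue that lies over the forebrain and patterns the upper jaw. The members were all rows of the deposited miRNA table of the families miR-7, miR-124, miR-128, miR-137, miR-138, miR-153, miR-218 and miR-219, with any letter, copy or arm. They made up 21 of 994 rows. By role they were 15 neuronal rows (miR-124, miR-128, miR-138, miR-153 and miR-218), 2 neuroendocrine rows (miR-7), 2 progenitor rows (miR-137) and 2 glial rows (miR-219). The samples were 4 libraries of Hamburger-Hamilton stage 22 (HH22, 72 h of incubation, replicates 1 to 4) and 4 of stage 18 (HH18, 48 h, replicates 5 to 8). All embryos were normal, untreated Rhode Island Red chicks and each library pooled 2 of them, so the p-values below describe pools. The series compares the face after and before the onset of Sonic hedgehog (SHH) expression in this tissue, in a search for miRNAs that respond to SHH signalling from the brain.

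A miRNA is cut from a hairpin precursor as a pair of arms, named 5p and 3p after their ends of the hairpin. Usually 1 arm is kept by Argonaute and guides it to partly matching sites in mRNAs, which lowers their output. The families described here are best known from the nervous system, where they act in differentiating neurons (miR-124, miR-128, miR-218), at synapses (miR-138, miR-153), in neuroendocrine cells (miR-7), in neural progenitors (miR-137) and in oligodendrocytes (miR-219). Most of these roles were worked out in mouse and rat.

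Over the 994 miRNA rows the libraries held 46.9 to 88.5 M (mega) reads at HH22 and 6.3 to 31.3 M reads at HH18. Depth here means these totals, as all reads sequenced are not known, and it cannot be told apart from stage. Values are normalized counts, recovered from the deposited log2 values as described under processing, and a floor of 3 reads equalled 1.01 (the deepest library) to 12.54 (the shallowest). The epithelial list (miR-200, miR-203, miR-205 and miR-429), a check of the labelled tissue, had reads in all 9 of its rows, with 2 higher and 1 lower at HH22, and summed to between 454130 and 612970 normalized counts at HH22, and between 264080 and 375690 at HH18. Rows of other tissues were also present. The mesenchyme list (miR-140, miR-199 and miR-214; 5 of 6 rows tested, 3 higher and 0 lower) summed to 40465 to 44706 at HH22 and 25750 to 29651 at HH18. The blood and endothelium list (8 rows, 0 higher and 0 lower) summed to 306 to 2084 at HH22 and 233 to 14371 at HH18, the highest value being that of HH18 replicate 5. Of 14 striated muscle rows 9 stood at 0 in all libraries, 1 of 3 tested was higher, and the list summed to 12.6 to 92.0 at HH22 and 0 to 38.2 at HH18. The higher row, miR-133a-3p, averaged 9.92 at HH22 and stood at 0 in every HH18 library. It was tested only because of its HH22 values, and their mean lies below the floor of the shallowest library. The placode and sensory list (4 rows, 0 higher and 1 lower) summed to between 1208300 and 1984700 at HH22, and between 2257100 and 3990100 at HH18. Nearly all of that sum was miR-183, the row that was lower (mean 1610600 at HH22 and 2982500 at HH18; log2 fold change -0.88). The other placode rows overlapped between the stages and did not pass (log2 fold changes 0.08 for miR-375 and 1.08 for miR-204 and miR-211, whose values are identical).

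Of the 21 neural rows 20 had reads in some library and 11 had reads in all 8. Together they held 0.196% ± 0.027 of all miRNA reads at HH22 and 0.192% ± 0.045 at HH18 (SD, n = 4 each). Most of this was a single neuronal miRNA, miR-128-3p, which made up 58.3% to 65.2% of the members' reads at HH22 and 63.8% to 66.0% at HH18. The 5 members averaging 1000 or more normalized counts, miR-128-3p, miR-218-5p, miR-7, miR-219a and miR-219b, held 95.1% to 96.3% at HH22 and 94.1% to 95.9% at HH18.

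**Figure D1:**
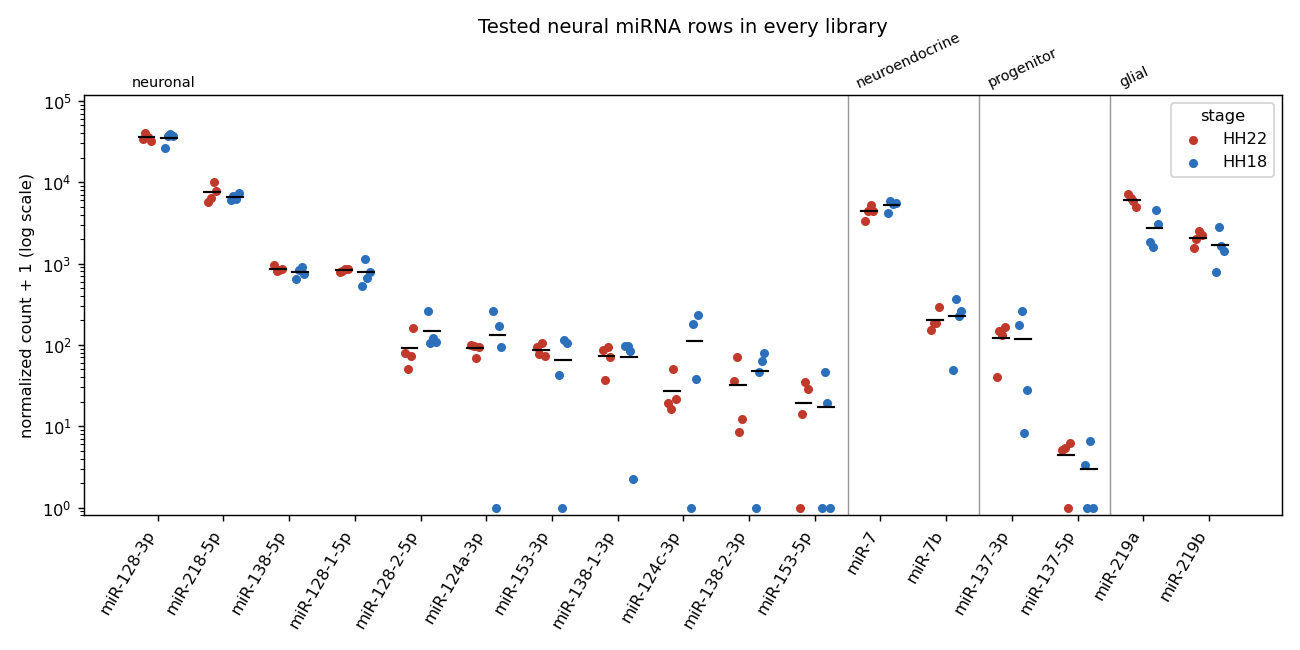
Normalized count plus 1 (log scale) of the 17 tested neural rows, grouped by role, with 1 point per library, HH22 in red to the left of HH18 in blue, and the mean of 4 libraries as a black bar. Points on the bottom line are libraries with 0 reads; the HH22 and HH18 points of miR-219a are the only ones that do not overlap.

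Between the stages 1 member rose, the glial miR-219a, and none fell. Members were tested where 4 or more libraries reached a normalized count of 1, which kept 17 of 21. This filter takes a row that is high at 1 stage alone, so the 17 are not all members. The 17 tested rows, with 1 higher and 0 lower at HH22 by limma (adjusted p under 0.05) and 1 at an unadjusted p under 0.05, stand against a background of 9.83% higher and 4.78% lower among all 356 tested features. By voom the count was also 1 higher and 0 lower. The HH22 and HH18 values did not overlap in 1 member, against 20.2% of all tested features. Tested members had a median log2 fold change of 0.17, against 0.38 over all tested features, with a pseudocount of 1 added before the log. The median over all tested features depended on that choice. It was 0.40 with a pseudocount of 0.5, 0.15 with 10 and 0.055 on the deposited log2 values. No difference between members and all features is read from these medians. A different scaling, called the trimmed scaling, divided each library by its total reads without the 5 most abundant features. It shifted the median of all tested features by -0.43. With it 1 member was higher and 2 were lower (miR-128-3p and miR-7, given below). Over all features that scaling called 24 higher and 47 lower, against 35 higher and 17 lower without it. Fewer cells of a type and less RNA per cell cannot be told apart in these bulk libraries.

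**Figure D2:**
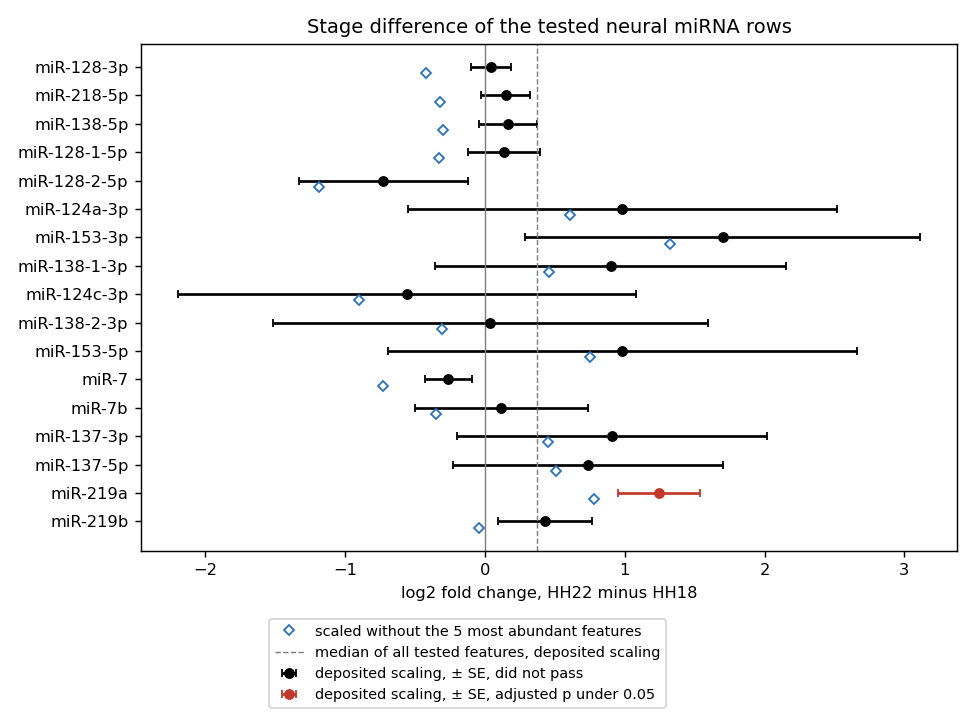
Log2 fold change of HH22 minus HH18 for the 17 tested rows (points) with its SE (bars), in red for the row past the threshold. Open diamonds give the value under the trimmed scaling. The dashed line marks the median of all tested features, 0.38 with a pseudocount of 1, a value that depends on the pseudocount. The diamonds of miR-128-3p, miR-218-5p, miR-138-5p, miR-128-1-5p, miR-138-2-3p, miR-7b and miR-219b lie on the other side of 0 from their points.

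miR-219a, the glial member that rose, is known in mouse for promoting the maturation of oligodendrocytes. It measured 7149.6, 6381, 5818 and 5018 normalized counts in HH22 replicates 1 to 4, against 1863, 1614, 4558 and 3073 in HH18 replicates 5 to 8. All HH22 values lay above all HH18 values, but HH18 replicate 7 came close to HH22 replicate 4. The means were 6092 ± 900.1 at HH22 and 2777 ± 1348 at HH18 (SD, n = 4 each), a 2.19-fold ratio (log2 fold change 1.25, SE 0.29; adjusted p = 0.0188 by limma). The call was lost when HH22 replicate 1 was left out (log2 fold change 1.16, limma adjusted p = 0.0584), when all features entered unfiltered (0.0533) and when differences within a fold of 1.5 counted as none (0.217). It held in 16 of 19 alternatives, with log2 fold changes of 0.69 to 1.53 and adjusted p of 0.00446 to 0.217 over all 19. Under the trimmed scaling it was 0.78 (adjusted p = 0.0473).

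The level of miR-219a moved with the depth of the libraries as well as with stage. A feature outside the members, miR-221-3p (given below), stood in the same order over the 8 libraries. The 4 HH18 libraries stood in the order of their depth, the shallowest (replicate 6, 6.3 M reads) lowest and the deepest (replicate 7, 31.3 M reads) highest, and the deepest HH22 library (replicate 1, 88.5 M reads) had the highest value of all. The other 3 HH22 libraries, of 46.9 to 50.1 M reads, ran the other way, replicate 4 being the deepest of them and the lowest. Without the shallowest pair, HH18 replicates 5 and 6, its log2 fold change of 0.69 passed (limma adjusted p = 0.0354). With each library thinned to 6276121 reads it was 1.25 (limma adjusted p = 0.0117); random thinning keeps the expected ratio of a row with this many reads. Whether what sets the shallow libraries apart has a part in the result was not tested. The epithelial and mesenchymal sums and miR-183, given above, also had no overlap between the stages, and their part was not tested. The blood and endothelium sums were 306, 316, 343 and 2084 in HH22 replicates 1 to 4, the reverse of the order of miR-219a. In HH18 replicates 5 to 8 they were 14371, 2040, 233 and 364. They were lowest in replicate 7, which had the most miR-219a, but replicate 5 exceeded replicate 6 in both. The part of blood RNA in the level of miR-219a was not tested.

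**Figure D3:**
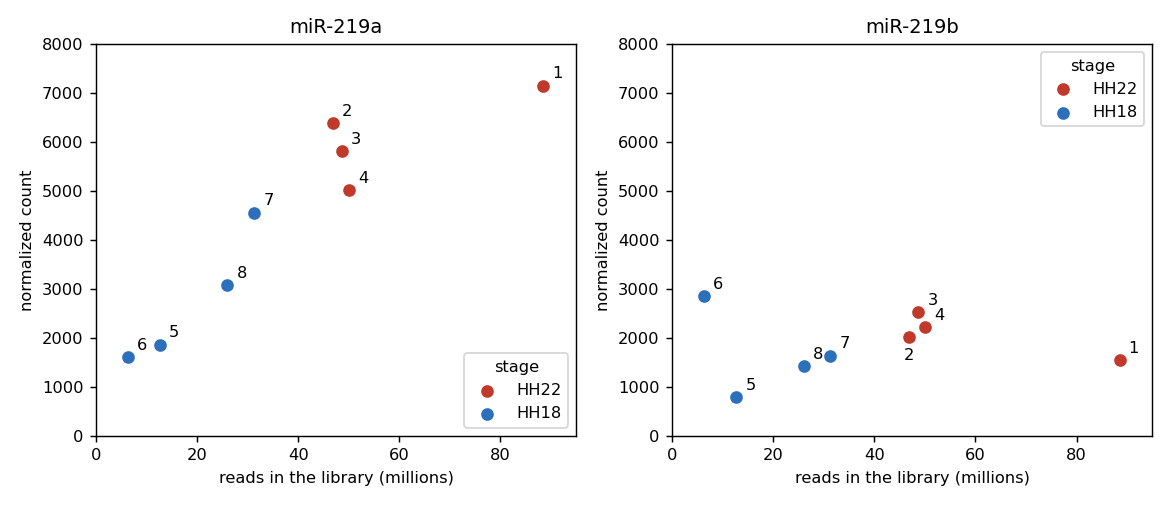
Normalized count of miR-219a (left) and miR-219b (right) against the reads of the library over all miRNA rows, in M. Each library is 1 point labelled by replicate number, HH22 in red and HH18 in blue. The 4 HH18 points of miR-219a climb with depth, between 1614 and 4558, while the shallowest HH18 library holds the highest miR-219b value, 2856.

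miR-219b is the other glial row, and its gene overlaps that of miR-219a in the RefSeq annotation of GRCg7b (MIR219A1 and MIR219). It measured 1547, 2020, 2517 and 2215 normalized counts in the HH22 libraries, against 796, 2856, 1635 and 1428 in the HH18 libraries. The stages overlapped, with HH18 replicate 6 the highest of all 8. The log2 fold change was 0.43 (SE 0.34; adjusted p = 0.465 by limma), and -0.04 under the trimmed scaling. The table does not mark the arm of either row, and how reads of overlapping genes were divided is not given in the sources used here. Within a library miR-219a was 4.62, 3.16, 2.31 and 2.27 times miR-219b at HH22, against 2.34, 0.565, 2.79 and 2.15 times at HH18. These ratios overlapped between the stages, and HH18 replicate 6 was the 1 library with more miR-219b than miR-219a. Summed over both rows, miR-219 gave 7233 to 8697 normalized counts at HH22 and 2659.5 to 6193 at HH18, with no overlap. With member reads summed by family and arm, it passed (log2 fold change 0.93, SE 0.22, adjusted p = 0.0187 by limma). Most of the sum was miR-219a, at a mean of 6092 of 8166.5 at HH22 and 2777 of 4456 at HH18. The pass is therefore no result separate from that of miR-219a. The lowest sum was that of HH18 replicate 5, and the shallowest library, replicate 6, had 4470.

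miR-128-3p was the most abundant neural member and ranked 19 of 994 features by mean level. It is enriched in the mammalian brain, where it lowers neuronal excitability, and its genes overlap R3HDM1 and ARPP21 in the RefSeq annotation, which are its host genes in mammals too. It measured 34413, 40224, 36484 and 31836 normalized counts in the HH22 libraries, against 26404, 37378, 39169 and 36637 in the HH18 libraries. The stages overlapped throughout, and HH18 replicate 5 was the lowest of all 8. The means were 35739 ± 3543 at HH22 and 34897 ± 5761 at HH18 (SD, n = 4 each), with a log2 fold change of 0.05 (SE 0.14; adjusted p = 0.871 by limma) that was -0.03 with library size scaling. Under the trimmed scaling it passed as lower at HH22 (log2 fold change -0.42, limma adjusted p = 0.0255), where the median of all tested features shifted by -0.43.

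The 5p arms of miR-128 were far scarcer and tell its pair of hairpins apart. miR-128-1-5p measured 778, 802, 866 and 852 normalized counts at HH22, against 531, 1146, 665 and 778 at HH18. miR-128-2-5p measured 78.8, 50.2, 72.2 and 160.5 at HH22, against 260.9, 104.5, 119.9 and 106.9 at HH18. Both overlapped between the stages and neither passed (log2 fold changes 0.14, SE 0.26, and -0.72, SE 0.61; adjusted p = 0.763 and 0.487 by limma). In each library the R3HDM1 hairpin gave more 5p reads than the ARPP21 hairpin, 5.31 to 15.98 times as many at HH22 and 2.04 to 10.96 times at HH18. HH18 replicate 5 stood at the low end of that ratio.

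miR-218-5p, which takes part in motor neuron identity in mouse, was next in level. Its genes overlap SLIT2 and SLIT3, which encode axon guidance ligands. It measured 5734, 6342, 9981 and 7906 normalized counts at HH22, against 6067, 6749, 6257 and 7403 at HH18. The HH18 values lay inside the HH22 range (log2 fold change 0.15, SE 0.18; adjusted p = 0.638 by limma), and the value was -0.32 under the trimmed scaling. Its partner arm, miR-218-3p, had 0 reads in all 8 libraries, below a floor of 3 reads in each.

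miR-138-5p, a synaptic miRNA that limits the size of dendritic spines in rat neurons, had the smallest SE of the members below 1000 normalized counts. It measured 956, 816, 833 and 869 at HH22, against 637, 840, 902 and 733 at HH18 (log2 fold change 0.17, SE 0.21; adjusted p = 0.658 by limma), with overlapping stages. The 3p arms of its pair of hairpins were scarcer and scattered. miR-138-1-3p measured 86.2, 36.4, 93.2 and 69.8 normalized counts at HH22, against 94.7, 96.2, 83.9 and 1.27 at HH18, the last of these resting on 1 read in replicate 8. miR-138-2-3p measured 34.6, 70.3, 7.39 and 11.1 at HH22, against 0, 46.0, 61.5 and 77.6 at HH18. Summed, the 3p arms gave 80.9 to 120.8 at HH22 and 78.9 to 145.45 at HH18, a narrower relative spread than that of either row.

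miR-124, the leading miRNA of mature mammalian neurons, was scarce in this tissue, and its reads were split between rows in a way that differed from library to library. miR-124a-3p measured 99.6, 96.7, 67.1 and 93.9 normalized counts at HH22, against 258.6, 0, 169.4 and 92.9 at HH18. miR-124c-3p measured 18.5, 15.1, 49.5 and 20.9 at HH22, against 0, 179.8, 37.6 and 229.1 at HH18. HH18 replicate 5 thus had all of its miR-124-3p reads in miR-124a-3p and HH18 replicate 6 all of them in miR-124c-3p, and the genes MIR124A and MIR124C overlap each other in the RefSeq annotation. Neither row passed alone (log2 fold changes 0.98, SE 1.53, and -0.55, SE 1.64; adjusted p = 0.714 and 0.865 by limma), and for miR-124a-3p the sign of the log2 fold change, is opposite to that of the means, 89.3 at HH22 and 130.2 at HH18; without HH18 replicate 6, the library with 0 reads, it was -0.85.

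Summed over both rows, miR-124-3p was even at HH22 and did not overlap with HH18. The sum was 118.1, 111.8, 116.5 and 114.8 normalized counts in the HH22 libraries, against 258.6, 179.8, 207 and 322 in the HH18 libraries. All HH22 values lay below all HH18 values, with means of 115.3 ± 2.72 at HH22 and 242 ± 62.7 at HH18 (SD, n = 4 each). The difference did not pass the threshold over the 351 features tested with member reads summed by family and arm (log2 fold change -1.03, SE 0.40, limma unadjusted p = 0.0271, adjusted p = 0.125). It stayed between -1.16 and -0.88 with single libraries left out and did not pass there. It passed under the trimmed scaling (log2 fold change -1.49, limma adjusted p = 0.0283). Of the marker rows, miR-183, miR-9-5p (given below) and the epithelial miR-200b-5p were likewise lower at HH22 with no overlap. miR-200b-5p averaged 5051 at HH22 and 11428 at HH18 (log2 fold change -1.18). The part of these rows in the difference of the miR-124-3p sum was not tested.

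**Figure D4:**
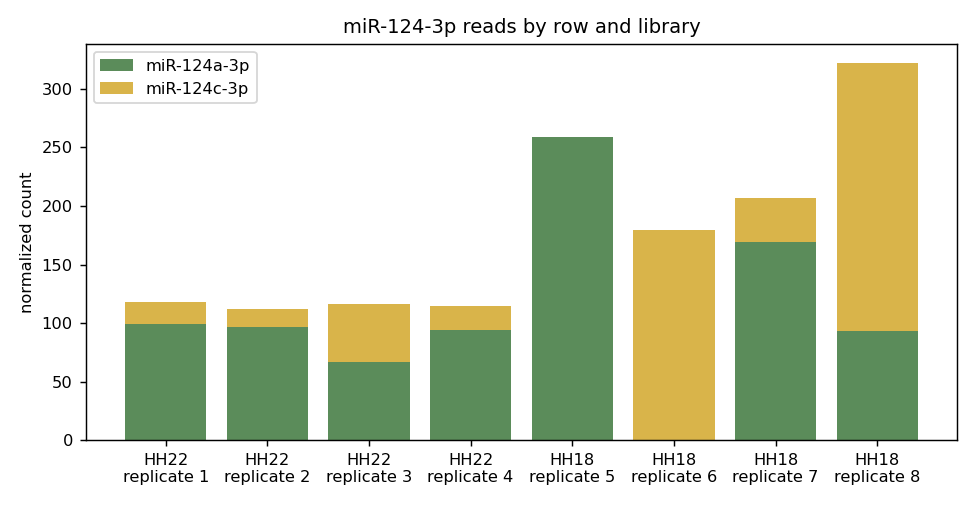
Normalized counts of miR-124a-3p (green) and miR-124c-3p (yellow) stacked for each library, with the HH22 libraries left of the HH18 libraries. The stacked heights are 111.8 to 118.1 at HH22 and 179.8 to 322 at HH18, while the division between the rows differs most among the HH18 libraries.

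The other miR-124 rows held reads in few libraries and were not tested. miR-124c-5p had 72 reads in HH18 replicate 6 and 0 in the other 7 libraries. miR-124a-5p had 59 reads in HH22 replicate 3 and 0 or 1 in each of the others, and miR-124b had 1 read in all.

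miR-153, whose gene overlaps PTPRN2 and which is enriched in the mammalian brain, was detected at a low level. miR-153-3p measured 92.6, 76.6, 105.2 and 71.8 normalized counts at HH22, against 41.6, 0, 112.7 and 103.1 at HH18. The HH22 values fell within the HH18 range, and the log2 fold change of 1.70 (SE 1.41; adjusted p = 0.487 by limma) depended on HH18 replicate 6, the library with 0 reads. It was 0.12 without that library (limma adjusted p = 0.933), 1.93 without HH18 replicate 5 (0.460) and -0.33 without both (0.727). miR-153-5p had reads in 5 of 8 libraries, at 0, 13.2, 33.5 and 27.4 normalized counts at HH22, against 0, 46.0, 18.4 and 0 at HH18 (log2 fold change 0.98, SE 1.68; adjusted p = 0.744 by limma).

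miR-7, a neuroendocrine miRNA of the pituitary and pancreatic islets that a circular RNA binds in the mammalian brain, has several genes in chick, 1 of which overlaps HNRNPK. It measured 3377, 4438, 5273 and 4408 normalized counts at HH22, against 4195, 5833, 5330 and 5505 at HH18. The stages overlapped, HH22 replicate 1 being the lowest of all 8 (log2 fold change -0.26, SE 0.17; adjusted p = 0.374 by limma). Under the trimmed scaling miR-7 passed as lower (log2 fold change -0.73, limma adjusted p = 0.0141). miR-7b, whose gene overlaps HNRNPKL, measured 152.3, 183.9, 183.02 and 287.7 at HH22, against 48.5, 368, 226 and 261 at HH18, with the HH18 values reaching further in both directions (log2 fold change 0.12, SE 0.62; adjusted p = 0.93 by limma, and -0.35 under the trimmed scaling).

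miR-137, which in mouse sets the balance between proliferation and differentiation of neural stem cells, spread widely within HH18. miR-137-3p measured 38.9, 146.3, 129.6 and 165.1 normalized counts at HH22, against 173.2, 259.2, 7.19 and 26.7 at HH18. The high HH18 values were those of the shallow replicates 5 and 6, which also had the highest blood and endothelium sums of that stage (14371 and 2040), and the low ones those of the deeper replicates 7 and 8 (233 and 364). The part of blood RNA was not tested. The log2 fold change was 0.91 (SE 1.11; adjusted p = 0.656 by limma), 2.82 without HH18 replicates 5 and 6 (adjusted p = 0.0540) and -0.02 without HH18 replicate 7. miR-137-5p had between 0 and 12 reads in each library (log2 fold change 0.74, SE 0.96; adjusted p = 0.667 by limma).

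The order of levels was miR-128-3p, miR-218-5p, miR-7, miR-219a, miR-219b, miR-138-5p, miR-128-1-5p and miR-7b, followed by the rows with means under 120. The order is one of normalized counts per mature miRNA, with no correction for length or for differences in ligation. miR-128-3p and miR-218-5p each stood above the next member in all 8 libraries and with no overlap of ranges at either stage. For miR-218-5p that next member is miR-7. The HH22 ranges of miR-218-5p and miR-219a overlapped. miR-219a was the higher in HH22 replicate 1 (7149.6 against 5734) and replicate 2 (6381 against 6342), and the lower in the other libraries. miR-7 and miR-219a did not differ beyond their spread over all 8 libraries, with miR-7 the higher in 4 of 8, namely the HH18 libraries. miR-138-5p and miR-128-1-5p overlapped at both stages, as did each neighbouring pair from miR-7b downwards. SEs of the log2 fold change were 0.14 to 0.34 for the 7 tested members averaging 500 or more normalized counts. They were 0.61 to 1.68 for the 10 below 500. Among those 10 the SE did not follow the level. The scarcest, miR-137-5p (mean 2.69), had an SE of 0.96, against 1.53 for miR-124a-3p (mean 109.8).

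Arm use was compared for 6 hairpins of which both arms had at least 3 reads in at least 4 libraries. The ratio of 3p to 5p reads within a library does not depend on scaling. The tested log2 ratio has 1 read added to each arm, and where an arm had 0 reads its value depends on depth. For miR-128-1 the 3p arm (which miR-128-2 shares) held 44.3, 50.1, 42.1 and 37.4 times the 5p reads at HH22, against 49.7, 32.6, 58.9 and 47.1 times at HH18. The log2 ratio averaged 5.43 ± 0.18 at HH22 and 5.52 ± 0.36 at HH18 (SD, n = 4 each; difference -0.09, exact two-sided permutation p = 0.686, adjusted p = 0.926 over the 6 hairpins). For miR-128-2 it averaged 8.75 ± 0.83 at HH22 and 7.96 ± 0.87 at HH18 (SD, n = 4 each; difference 0.79, exact two-sided permutation p = 0.286, adjusted p = 0.926). The miR-138-5p row is shared by both miR-138 hairpins, so the 5p reads of each are not known apart. Each 3p row was scarcer than the shared 5p row, with mean log2 ratios of -3.68 ± 0.56 at HH22 and -4.35 ± 2.57 at HH18 for miR-138-1, and of -5.31 ± 1.44 at HH22 and -4.82 ± 2.23 at HH18 for miR-138-2 (SD, n = 4 each). No hairpin passed. The smallest unadjusted exact permutation p that 4 against 4 libraries can give is 0.0286. After adjustment over the 6 hairpins, a difference confined to 1 hairpin could not pass, so unchanged arm use is not read from this. The differences of miR-138-1, miR-138-2, miR-153 and miR-137 were 0.67, -0.49, 1.003 and 1.17, with unadjusted exact permutation p of 0.971, 0.771, 0.771 and 0.543 (adjusted p = 0.971 for miR-138-1 and 0.926 for the others). An arm of miR-153 had 0 reads in HH22 replicate 1 and in HH18 replicates 5, 6 and 8. The same held for miR-137 in HH22 replicate 3 and HH18 replicates 6 and 8, and for miR-138-2 in HH18 replicate 5. In those libraries the value rests on the added read.

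The features most like the leading member of each role were found among 169 other features averaging 100 or more normalized counts. The measure was the Pearson correlation of log2 values over the 8 libraries. These libraries differ in stage and in depth, which the correlations do not tell apart. For miR-219a the features were miR-221-3p (r = 0.98), miR-181a-5p (r = 0.96) and miR-30d (r = 0.96). Their Spearman rank correlations were 1.0, 0.98 and 0.98. All averaged higher at HH22, at 18824 against 12605, 368150 against 193950 and 31524 against 20467 normalized counts. For miR-128-3p the features were miR-1737, miR-429-5p and miR-429-3p (r = 0.88, 0.88 and 0.87). By Spearman rank correlation these were lower, at 0.71, 0.45 and 0.67. HH18 replicate 5 was the lowest of the 8 libraries in miR-128-3p and in both miR-429 rows. For miR-7 the features were miR-460b-5p, miR-130b-3p and miR-1458 (r = 0.84, 0.84 and 0.82), and for miR-137-3p miR-223, miR-1329-5p and miR-16-5p (r = 0.81, 0.76 and 0.73). These are descriptions of 8 libraries in 2 stages, and no test was made of them.

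Of a list of other nervous system miRNAs, rows of miR-9 and miR-135 were present. Of 6 tested rows 0 were higher and 1 was lower at HH22, miR-9-5p, a miRNA of neural progenitors (8660 ± 626 at HH22 and 20034 ± 3403 at HH18; SD, n = 4 each; log2 fold change -1.20, SE 0.14; adjusted p = 0.000489 by limma). The next in level, miR-9-3p, averaged 185.5 ± 24.7 at HH22 and 390.5 ± 246.6 at HH18 (SD, n = 4 each; log2 fold change -0.90, limma adjusted p = 0.232). The 4 tested miR-135a rows overlapped between the stages and did not pass, with log2 fold changes of 3.18, 1.47, 1.56 and -0.55. The value of 3.18, that of miR-135a-1-3p, does not show in its means, 39.2 at HH22 and 39.8 at HH18. That row stood at 0 in HH18 replicates 6, 7 and 8 and highest of all in HH18 replicate 5 (159.3). The median over the 6 tested rows was 0.46. Set against the members within a library, miR-9-5p was 1.10 to 1.73 times miR-219a at HH22 and 4.54 to 12.45 times at HH18. As every HH22 library was lower in miR-9-5p and higher in miR-219a, this ratio could not overlap. It is therefore no result beyond those of the rows. Against the miR-124-3p sum miR-9-5p was 66.7 to 80.8 times at HH22 and 60.1 to 111.8 times at HH18, so that this ratio overlapped between the stages.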

How the data were processed

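Small RNA was sequenced from 8 libraries of untreated chick ectoderm, 4 per stage. Per the labels' protocols, a miRNeasy kit gave the total RNA and an Illumina TruSeq kit the small RNA libraries. Tools in the submitters' processing notes are kallisto 0.44.0, cutadapt 1.8.1 and bcl2fastq; the reference and the build are not stated there. The deposited values are on a log2 scale and share a lowest value, 8.52, in every library. Inverting the closed-form variance-stabilizing transformation, as worked out from the values, gave whole multiples of 1 step in each library (100% of nonzero values, tolerance 0.001). The multiples are called reads, and reads divided by the median-of-ratios size factor are called normalized counts. As kallisto estimates counts, a read is a rounded estimate. Floors cover counting error only.

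Because the deposited unit is log2, limma-trend was used on log2(normalized count + 1), HH22 minus HH18, two-sided, over all 356 features that passed the filter, adjusted by Benjamini-Hochberg, with the threshold at 0.05. Such fold changes of scarce miRNAs depend on the pseudocount. Arm ratios, log2((3p reads + 1)/(5p reads + 1)), were tested with an exact permutation test. Procedures were tested on simulated data. Versions were Python 3.11.15, scipy 1.17.1, numpy 2.4.6, matplotlib 3.10.9, pandas 2.3.3, limma 3.58.1 and R 4.3.3. All 8 columns were matched to samples by name. In the 12 pairs of replicates of a stage the chi-square of the reads per degree of freedom was 187.1 or more, so each library was counted once. At this depth that value cannot tell separate pools from repeat libraries of 1 pool. Gene names and overlaps come from RefSeq (GRCg7b), where 20 of 21 rows matched a gene name; overlaps were taken without regard to strand, and no coordinates are given, as the files' build is unknown. Every member row is named; per-library values are given for tested members averaging 10 or more normalized counts. The members and lists were chosen with earlier results of these data known. The alternatives were pseudocounts of 0.5 and 10, no filter and a minimum of 10, the deposited log2 values and voom. Others were scaling to library size, or to library size without the 5 most abundant features (the trimmed scaling). Thinning to equal depth, sums by family and arm, RPM, and leaving out libraries were also used. The test against a fold of 1.5 and the alternatives of the miR-124-3p sum were chosen after seeing the data.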

Additional observations from a re-analysis of the deposited data

Results flagged for a closer look

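In groups of 4 libraries, 13 of 50 sets of values held 1 library far from the other 3 (Dixon's test at the 95% level). The test flags about 1 in 20 sets of normal values by chance. These counts are not such values, so no excess is read from the number flagged. A row with reads in only 1 library of the 4 is flagged at any level. Several of these sets share libraries or reads, and many rest on few reads. HH18 replicate 5 was low in miR-128-3p (26404 normalized counts, others 36637 to 39169), high in miR-128-2-5p (261, others 104.5 to 119.9), without reads of miR-138-2-3p (0, others 46.0 to 77.6) and low in the miR-128-2 arm log2 ratio (6.65, others 8.34 to 8.43). HH18 replicate 8 was low in miR-138-1-3p (1.27, others 83.9 to 96.2) and in the miR-138-1 arm log2 ratio (-8.17, others -3.41 to -2.72). HH18 replicate 6 alone held miR-124c-5p (301.1 normalized counts, others 0). HH22 replicate 1 was low in miR-137-3p (38.9, others 129.6 to 165.1) and high in the miR-153 arm log2 ratio (8.11, others 1.37 to 2.48). That ratio rests on the 1 read added to each arm, as this library had 276 reads of miR-153-3p and 0 of miR-153-5p. HH22 replicate 3 was low in miR-124a-3p (67.1, others 93.9 to 99.6), high in miR-124a-5p (33.5, others 0 to 0.652) and without reads of miR-137-5p (0, others 4.03 to 5.22). HH22 replicate 2 alone held miR-124b (0.628, others 0).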

How the results depend on the processing

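miR-219a was the 1 member higher at HH22 in most settings; the number higher was 0 without a filter, 0 when tested against a 1.5-fold difference and 0 to 1 with single libraries left out. The number lower was 2 under the trimmed scaling and 0 in the other settings. Over all tested features 52 passed, against 24 without a filter, 10 when tested against a 1.5-fold difference and 29 to 65 with single libraries left out (29 without HH22 replicate 1, 33 without HH22 replicate 4, 34 without HH18 replicate 8). No paired analysis was possible because the sample numbers 1 to 8 are all different. With an HH18 or HH22 library left out, 3 against 4 arm ratios cannot go below an unadjusted exact permutation p of 0.0571. Signs of the log2 fold change turned for members that did not pass in the main limma test. Of these, miR-128-3p passed as lower under the trimmed scaling. The cause of the turned signs was not tested. Under the trimmed scaling the values were -0.42 for miR-128-3p, -0.32 for miR-218-5p, -0.038 for miR-219b, -0.30 for miR-138-5p, -0.33 for miR-128-1-5p, -0.35 for miR-7b and -0.31 for miR-138-2-3p. With library size scaling they were -0.031 for miR-128-3p and -0.030 for miR-138-2-3p. On the deposited log2 values they were -0.012 for miR-7b, -0.012 for miR-124a-3p and -0.057 for miR-138-2-3p, and by voom -0.033 for miR-7b and -0.20 for miR-138-2-3p. miR-138-2-3p was -0.35 with a pseudocount of 10 and -0.57 after thinning. Without HH18 replicates 5 and 6 the values were -0.089 for miR-128-3p, -0.31 for miR-7b, -0.50 for miR-124a-3p, -0.33 for miR-153-3p and -1.64 for miR-138-2-3p. With single libraries left out they ranged from -0.083 to 0.11 for miR-128-3p, -0.028 to 0.34 for miR-128-1-5p, -0.51 to 0.46 for miR-7b, -0.85 to 1.82 for miR-124a-3p, -2.27 to 0.34 for miR-124c-3p, -0.022 to 1.64 for miR-137-3p, -0.44 to 1.37 for miR-138-1-3p and -1.45 to 0.65 for miR-138-2-3p. Arm differences ranged with single libraries left out from -0.25 to 0.030 for miR-128-1, -0.054 to 1.84 for miR-137, -0.61 to 1.21 for miR-138-1, -1.59 to 0.042 for miR-138-2 and -0.99 to 2.32 for miR-153. That of miR-138-1 was -0.021 with a pseudocount of 10 reads and that of miR-153 was -1.06 without HH18 replicates 5 and 6.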
